A study of Homo sapiens with 6 samples.

Results

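The untreated Cal27 cells of this study are described here by the level of each transcript in their 2 libraries, out of 6 libraries in all. The members were chosen by label alone, as the libraries of wild-type Cal27 cells marked untreated, and no measured value entered the choice. Cal27 is an established human line grown from a squamous carcinoma of the tongue. The other 4 libraries came from the same line after lentiviral transduction, 2 with a GFP control vector and 2 with a vector for cornulin (CRNN), a protein of differentiating squamous epithelium. Transduction used polybrene at 8 µg/ml, and those cells were harvested at 48 h. No harvest time and no polybrene are recorded for the untreated cells, so handling and transduction cannot be told apart between the groups. All 6 cultures were kept in DMEM with fetal bovine serum, all libraries are marked batch 1, and total RNA was sequenced in pairs after a stranded preparation. The 2 libraries of each group are given as biological replicates, and nothing says whether they came from separate thaws or passages. Below, replicate 1 and replicate 2 mean the untreated libraries unless another group is named.

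Squamous epithelium renews from a basal layer whose cells make the keratin pair KRT5 and KRT14 under the transcription factor p63 (TP63) and sit on laminin-332 through hemidesmosomes. Cells that leave this layer switch to suprabasal keratins and then to the proteins of the cornified envelope. Carcinomas of the mouth often keep the basal and stress keratins, and the receptor EGFR, whose ligands the cells themselves can make, drives their growth.

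Replicate 1 held 28041227 counts and replicate 2 held 24300844, against 11817105 to 22990621 in the 4 transduced libraries. Of 57820 genes in the table, 26023 and 26644 had a count, and mitochondrial genes took 22.5% and 25.8% of all counts. Levels are given as CPM, the counts of a gene relative to the size of its library, after TMM scaling for composition. CPM grows with transcript length, so a rank by CPM orders genes by the counts they took, and levels of different genes are compared per kilobase, of merged exons unless another length is named. At these depths 3 counts, the most that a count of 0 allows, were 0.115 CPM in replicate 1 and 0.120 CPM in replicate 2. Replicate 1 stood apart: it had the highest level of all 6 libraries in 31.1% of 13635 genes and the lowest in 24.7%. Replicate 2 was highest in 8.24% and lowest in 7.67%. Every level is therefore given for each library, and a difference between the replicates rests on 1 library against 1, with no test.

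The markers of the basal keratinocyte fitted the label of an epithelial cell. KRT5 (ENSG00000186081.7) had 2372 and 4270 CPM, or 804 CPM per kilobase in the mean of both, a level above that of 99.9% of the 11027 coding genes with at least 1 CPM in both libraries. EGFR had 737 and 651 CPM (43.5 CPM per kilobase, above 94.5% of those genes). TP63 had 195 and 294 CPM (32.7 CPM per kilobase, above 92.5%). KRT14 (ENSG00000186847.5), the partner of KRT5, had 64.6 and 275 CPM (75.2 CPM per kilobase, above 97.2%). All 4 were thus among the more abundant coding transcripts, whose median was 4.21 CPM per kilobase with quartiles of 1.64 and 10.8. KRT14 was the only one of the 4 that differed more than 4-fold between the replicates (4.25-fold). In RNA from whole cultures, fewer cells that make a transcript and less of it per cell cannot be told apart.

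Nuclear protein-coding genes took 69.6% of the counts in replicate 1 and 63.3% in replicate 2. The 2 mitochondrial ribosomal RNAs took 21.6% and 24.6%, and long noncoding RNAs 2.27% and 2.84%. Small nucleolar and Cajal body RNAs took 0.0899% in replicate 1 (exact 95% binomial interval 0.0888 to 0.0910) and 0.270% in replicate 2 (0.268 to 0.272). Most of this gap came from 1 gene. SNORD3A, a small nucleolar RNA named after its values were seen, took 0.0416% and 0.195% of the counts, at 446 and 1902 CPM. Without it the shares were 0.0483% and 0.0742%. It also varied among the transduced libraries, from 535 to 3138 CPM. Intervals and limits of counts cover counting error only.

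By the mean CPM of both libraries, the nuclear gene that took the most counts was 7SK, the noncoding RNA that holds the elongation factor P-TEFb inactive, with 19882 and 19168 CPM, ranks 1 and 2. The gene has many near-identical copies, so its count is uncertain. Of the next 3 genes by that mean none had a symbol in the annotation used, and 1 of them ranked above 7SK in replicate 2. Among coding genes EEF1A1, which brings aminoacyl-tRNA to the ribosome, had 9639 and 7786 CPM, ranks 2 and 1. Cytoplasmic actin ACTB had 11070 and 4517 CPM, ranks 1 and 2. THBS1, a secreted matrix glycoprotein, had 9532 CPM in replicate 1 and 1519 CPM in replicate 2, ranks 3 and 18. Elongation factor EEF2 had 3869 and 3370 CPM, and the glycolytic enzyme ENO1 had 3257 and 3451 CPM. KRT5 ranked 13 among coding genes by CPM in replicate 1 and 3 in replicate 2. MALAT1, a nuclear long noncoding RNA, had 2042 and 2664 CPM.

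Part of this order held in both libraries and part in 1 only. The 25 highest coding genes by CPM of each library shared 18 members, and the 100 highest shared 74. F3, tissue factor, the cell-surface starter of coagulation, had 3552 and 283 CPM, ranks 5 and 310. IGFBP3, which binds insulin-like growth factors, had 2853 and 577 CPM, ranks 7 and 114. Ezrin (EZR), which ties actin to the membrane, had 2069 and 474 CPM, ranks 20 and 148. ENO1, HSP90AB1 and RPS2 kept near places, with HSP90AB1, a cytosolic chaperone, at 2558 and 2405 CPM. The 10 highest coding genes held 6.96% of the coding counts in replicate 1 and 5.77% in replicate 2.

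Per kilobase of merged exons the order changed, and 11 of the 25 highest coding genes were among the 25 highest by CPM. By the mean of both libraries ACTB led with 1769 CPM per kilobase, at 2513 in replicate 1 and 1025 in replicate 2. Next by that mean were TMSB10, an actin-binding thymosin, with 1493 (1581 and 1404), and the ferritin light chain FTL with 1275 (1395 and 1155). The ribosomal protein RPS12 had 1231 CPM per kilobase (1267 and 1195). In replicate 2 TMSB10, FTL and RPS12 each stood above ACTB, so its lead came from replicate 1. The histone gene H2BC12, named after its values were seen, had 1172 CPM per kilobase. The length of the canonical transcript in place of merged exons was a choice made after the data were seen. With it the first 5 by the mean were ACTB, RPL7A, RPL35, RPL12 and EEF1A1. Actins and histones have near-identical copies, between which counts may be split.

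All 24 members of the list of basal and stress keratins and their lineage factors had at least 1 CPM in both libraries, with a median of 34 CPM per kilobase. By the mean per kilobase SFN came after KRT5. SFN, the 14-3-3 protein of stratified epithelium, had 1017 and 305 CPM, and the calcium-binding S100A2, next in that order, 1020 and 516 CPM. In replicate 1 SFN, S100A2 and KRT17 stood above KRT5, with 777, 660 and 591 CPM per kilobase against 574. In replicate 2 they had 234, 334 and 37.7 against 1033 for KRT5. KRT6A, a keratin of wounded and hyperproliferative epithelium, had 356 and 586 CPM. Its near copies KRT6B and KRT6C may share reads with it and had 31.7 and 18.7 CPM, and 1.07 and 4.84 CPM. CD44, a hyaluronan receptor, had 649 and 637 CPM. Among the transcription factors KLF5 had 194 and 65.5 CPM and GRHL2, which keeps epithelial identity, 86.7 and 119 CPM. PAX9, of oral epithelium, had 10.5 and 11.1 CPM. SOX2, an oncogene amplified in some squamous carcinomas, had 1.03 and 9.25 CPM, so that its level per kilobase lay below the coding median in both libraries. The plot of 38 genes per kilobase shows these levels side by side.

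**Figure D1:**
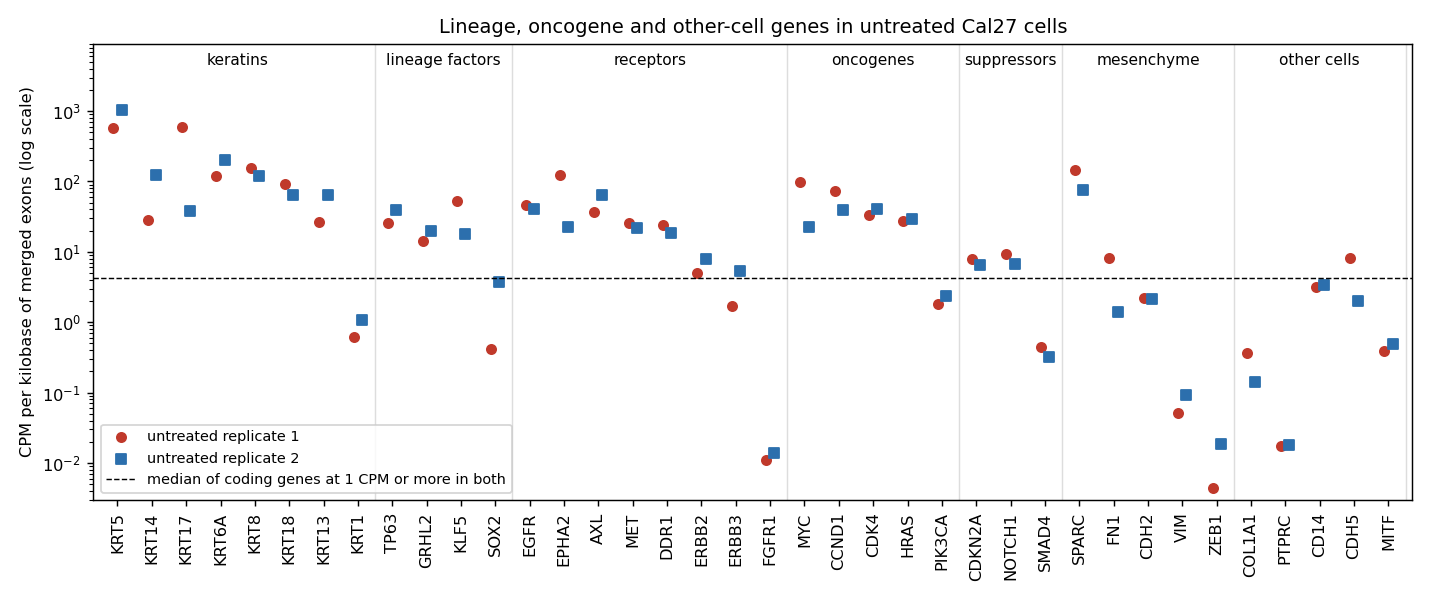
Level of 38 genes in untreated Cal27 cells, as CPM per kilobase of merged exons on a log axis, with a circle for replicate 1 and a square for replicate 2; the dashed line is the coding median of 4.21 CPM per kilobase. KRT5 lay at 574 and 1033 CPM per kilobase, SMAD4, VIM, ZEB1 and FGFR1 lay below the line in both libraries, and among the keratins and lineage factors drawn KRT17, KRT14 and SOX2 had the widest gaps.

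The genes that anchor basal cells were all expressed as well. The 14 hemidesmosome, integrin and laminin-332 genes had at least 1 CPM in both libraries and a median of 22.7 CPM per kilobase. LAMB3, the beta chain of laminin-332, had 523 and 183 CPM, and LAMA3, its alpha chain, 53.4 and 41.8 CPM. ITGB4 and ITGA6, which form the hemidesmosome integrin, had 232 and 255 CPM, and 140 and 242 CPM. COL17A1, a collagen of the same plaque, had 118 and 296 CPM. No member was more than 4-fold apart, beside 4.44% of all genes, but only 6 of the 14 lay within 2-fold, beside 82.6%. The median log2 difference, replicate 1 minus replicate 2, was 1.04, beside 0.028 over all genes. Of the 14, 10 were higher in replicate 1, beside 7084 of 13635 genes.

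Of 23 desmosome and junction genes, 20 had at least 1 CPM in both libraries, and the median was 17.7 CPM per kilobase. Desmoplakin (DSP), the linker to keratin filaments, had 437 and 465 CPM, and EPCAM, an epithelial adhesion molecule, had 142 and 136 CPM. E-cadherin (CDH1) had 281 and 116 CPM, and its partner beta-catenin (CTNNB1) 1030 and 562 CPM. The tight junction protein CLDN1 was highest, with 1451 and 325 CPM, while CLDN4 had 1 count in replicate 1 and 0 in replicate 2. CLDN1 and occludin (OCLN, 36.4 and 5.76 CPM) were more than 4-fold higher in replicate 1. The desmosomal cadherins of the upper layers were near 0: DSG1 had 18 and 42 counts, and DSC1 had 0 and 1.

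Suprabasal keratins and cornified envelope genes were low as a group, with 18 of 33 at 1 CPM or more in both libraries and a median of 1.11 CPM per kilobase. The protease KLK5 was highest per kilobase in the mean of both libraries, with 208 and 232 CPM, though KRT80 stood above it in replicate 1. KRT13, a keratin of the oral mucosa, had 78.2 and 184 CPM, and its partner KRT4 80.8 and 56.8 CPM. The epidermal pair KRT1 and KRT10 had 1.53 and 2.64 CPM, and 13.4 and 9.73 CPM. Loricrin (LORICRIN), the main protein of the epidermal envelope, had 1 count in each library, filaggrin (FLG) 17 and 43 counts, and corneodesmosin (CDSN) none. CRNN itself, the gene carried by one of the vectors, had 92 and 52 counts, or 3.51 and 2.08 CPM. SPRR1A, SPRR1B and CALML5 were more than 4-fold higher in replicate 2 (SPRR1B at 2.25 and 13.4 CPM), and KRT80 was more than 4-fold higher in replicate 1 (674 and 127 CPM).

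Simple epithelial keratins were present beside the stratified ones, and mesenchymal genes were uneven. KRT8 and KRT18, the pair of simple epithelia, had 1063 and 829 CPM, and 283 and 200 CPM. KRT7 had 11.8 and 5.00 CPM, and KRT19, often seen in basal cells of the mouth, had 1.83 and 2.2 CPM. Of 12 mesenchymal transition markers, 6 had at least 1 CPM in both libraries. SPARC, a collagen-binding secreted protein, had 683 and 356 CPM, and SNAI2 (Slug), a repressor of E-cadherin, 58.9 and 30.4 CPM. N-cadherin (CDH2) had 18.8 and 18.6 CPM. Vimentin (VIM), the mesenchymal filament, had 7 and 12 counts, ZEB1 had 1 and 4, and TWIST2 had 0 in both. Fibronectin (FN1, 140 and 24.3 CPM) was more than 4-fold higher in replicate 1.

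Of 30 receptor tyrosine kinases, 16 had at least 1 CPM in both libraries. EPHA2, an ephrin receptor, was highest per kilobase in the mean of both libraries and had 513 and 93.0 CPM. Per kilobase it had 124 CPM in replicate 1 but 22.4 in replicate 2, below AXL (65.3) and EGFR (40.8) there. AXL had 187 and 335 CPM, MET, the receptor of hepatocyte growth factor, 184 and 159 CPM, and the collagen receptor DDR1 218 and 169 CPM. In the EGFR family ERBB2 had 51.5 and 81.9 CPM, ERBB3 19.6 and 61.8 CPM, and ERBB4 8 counts and 0. Among the FGF receptors FGFR2 had 32.2 and 46.2 CPM and FGFR3 15.1 and 48.2 CPM, while FGFR1 had 5 and 6 counts. PDGFRA had no count in either library. EPHA2 was more than 4-fold higher in replicate 1, and KIT (7 and 55 counts) was more than 4-fold higher in replicate 2.

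Ligands of the EGFR family split by library where EGFR itself did not. The list covers the whole family, so it also holds neuregulins such as NRG1 (77.2 and 29.8 CPM). Of 10 ligand genes, 5 had at least 1 CPM in 1 or both libraries, and 4 of these 5 were more than 4-fold higher in replicate 1, against 3% of all genes at that level. HBEGF had 64.2 CPM in replicate 1 and 2.52 in replicate 2, and between 2.22 and 8.72 CPM in the transduced libraries. EREG had 90.9 and 6.01 CPM, with 10.1 to 33.4 CPM in transduced cells. AREG had 9.01 and 0.721 CPM and TGFA 12.9 and 2.2 CPM. EGF itself had 9 and 10 counts. For the 5 ligands replicate 1 was the highest of the 6 libraries in each, while EGFR lay within 1.13-fold between the replicates. ERBB3, another receptor of the family, was 3.15-fold apart and higher in replicate 2.

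Oncogenes altered in squamous carcinoma were nearly all expressed, with 26 of 28 at 1 CPM or more in both libraries and a median of 8.93 CPM per kilobase. MYC had 595 and 136 CPM, against 103 to 148 CPM in the transduced libraries. CCND1, the G1 cyclin, had 348 and 188 CPM, its kinase CDK4 105 and 126 CPM, and cortactin (CTTN) 383 and 261 CPM. HRAS had 66.0 and 70.9 CPM, and the lipid kinase PIK3CA 31.4 and 41.1 CPM. Telomerase (TERT) had 5.27 and 4.84 CPM, and MYCN had no count. MYC was more than 4-fold higher in replicate 1, and MYCL (0.688 and 5.24 CPM) and the mitotic kinase AURKA (38.2 and 160 CPM) were more than 4-fold higher in replicate 2.

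All 26 tumour suppressors had at least 1 CPM in both libraries, with a median of 6.39 CPM per kilobase, and 22 of them lay within 2-fold, beside 82.6% of all genes. The cell cycle inhibitor CDKN2A had 31.2 and 24.9 CPM, and the receptor NOTCH1 117 and 84.8 CPM. FAT1, an atypical cadherin, had 379 and 246 CPM. SMAD4, the shared signal carrier of the TGF-beta family, was lowest with 8.63 and 6.33 CPM. At 0.381 CPM per kilobase it lay above 4.53% of coding genes, or above 7.94% by canonical length. CDKN1A (p21), a cell cycle inhibitor, was the 1 suppressor more than 4-fold apart, at 62.0 and 9.25 CPM.

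Among 23 surface proteins that antibodies can target, 18 had at least 1 CPM in both libraries. Beside F3, the transferrin receptor (TFRC) had 612 and 479 CPM, CD47, the signal against phagocytosis, 168 and 109 CPM, and CD276 55.7 and 41.3 CPM. PD-L1 (CD274), the ligand of PD-1, had 26.1 CPM in replicate 1 and 3.20 in replicate 2, beside 2.34 to 3.58 CPM in the transduced libraries. PDCD1LG2, the other PD-1 ligand, had 4.24 and 0.320 CPM. CEACAM5 and mesothelin (MSLN) were near 0, at 3 and 3 counts and at 1 and 7 counts. F3, CD274 and PDCD1LG2 were among the 4 antigens more than 4-fold higher in replicate 1, beside 3% of all genes.

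Cancer-testis genes, normally silent outside the germ line, were mostly at 0, with 1 clear exception. MAGEA4 had 219 and 154 CPM, or 55.3 CPM per kilobase, a level above that of 96.0% of coding genes. PRAME had 1.64 and 2.48 CPM. MAGEA3 and MAGEA6, near-identical copies, had 20 and 5 counts, and 25 and 5 counts. The other members had at most 1 count, and 11 of 16, among them CTAG1B, MAGEC1 and SSX2, had none.

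Genes of protein synthesis and glycolysis lay mostly within 2-fold between the replicates, as did 82.6% of all genes. The 76 ribosomal protein genes with counts all lay within 2-fold, and RPL26 was the farthest apart at 1.58-fold. Of the 76, 71 were higher in replicate 1, which was the highest of the 6 libraries for 59, beside 31.1% of all genes. The median difference of the 76, replicate 1 minus replicate 2, was 0.24 on the log2 scale. It was 0.10 with library totals and 0.039 with totals that leave out mitochondrial genes. Of 20 glycolysis genes at 1 CPM or more, 19 lay within 2-fold, with GAPDH at 2136 and 2544 CPM, PKM at 1984 and 2540 CPM and LDHA at 709 and 998 CPM. The glucose transporter SLC2A1 had 230 and 199 CPM. HK2, which traps glucose in the cell, was the exception at 126 and 38.6 CPM. The 13 mitochondrially encoded messenger RNAs were all lower in replicate 1, by a median of -0.51, and all within 2-fold. MT2A, a metallothionein, had 212 and 287 CPM, and NQO1, a target of the oxidative stress factor NRF2, had 183 and 161 CPM, while the NRF2-induced reductase AKR1C1 had 14 and 34 counts.

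Genes of matrix breakdown were expressed with few exceptions. Of 25 matched proteases and plasminogen activation genes, 21 had at least 1 CPM in both libraries, with a median of 6.65 CPM per kilobase. Urokinase (PLAU), which activates plasminogen, was highest per kilobase at 237 and 87.0 CPM. The membrane-bound MMP14 had 61.3 and 66.7 CPM, the collagenases MMP1 and MMP13 had 23.3 and 22.2 CPM, and 12.3 and 12.1 CPM, and the inhibitor TIMP1 had 17.1 and 17.6 CPM, all alike in both libraries. The gelatinase MMP9 had 0 and 1 counts and MMP3 had none. Of 22 members at 1 CPM or more in 1 or both libraries, 5 were more than 4-fold higher in replicate 1, beside 3% of all genes. Among these 5 were PLAUR, PLAT (149 and 28.4 CPM), TIMP3 (24.5 and 4.84 CPM) and MMP7 (2.29 and 0.400 CPM).

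Of 19 noncoding RNAs on the list 13 were matched by symbol, and all 13 had at least 1 CPM in both libraries. 7SK, listed as RN7SK, was not matched under that symbol, though it was counted, with a mean of 58989 CPM per kilobase. Among the 13 matched, the telomerase RNA TERC was highest per kilobase after MALAT1 in the mean of both libraries, with 83.5 and 78.1 CPM. MIR205HG, the host of a microRNA of squamous epithelium, had 231 and 625 CPM, and NEAT1, the scaffold of paraspeckles, had 129 and 237 CPM. GAS5 and SNHG1, hosts of small nucleolar RNAs, had 166 and 136 CPM, and 118 and 118 CPM. None of the 13 was more than 4-fold apart, beside 4.44% of all genes, and 8 lay within 2-fold, beside 82.6%.

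Many coding genes were not detectable. Of 19195 nuclear coding genes, 11027 had at least 1 CPM in both libraries, 267 in replicate 1 only and 357 in replicate 2 only, and 3911 (20.4%) had no count in either. Among those 3911, 828 had a count in the transduced libraries, and 16 had 10 or more there. Some gene families were mostly at 0. No count was found for 353 of 382 olfactory receptors, 85 of 92 keratin-associated proteins of hair, 37 of 40 beta-defensins and 14 of 17 type I interferons. Of 55 keratins 14 had none and 19 had at least 1 CPM in both libraries. Of 24 claudins 6 had none, and of 469 zinc finger genes named ZNF 93 had none, lower shares than in the families mostly at 0.

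A count of 0 is not in every case a silent gene. The elongation factor subunit EEF1G and the peptide transporter TAP2 had 0 counts in all 6 libraries, although translation in growing cells uses the first of these. How the reads of such genes were assigned is not given in the sources used here. Duplicated and overlapping genes can lose reads in counting, so a 0 for a member of a close family shows only that no read was counted.

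Most markers of other cell types were low in both libraries. The 8 fibroblast markers summed to 5.58 and 4.04 CPM, beside 5.35 to 9.26 CPM in the transduced libraries, with COL1A1 at 86 and 32 counts and FAP at 2 and 0. The 9 immune markers summed to 6.26 and 7.41 CPM (6.02 to 9.79 in transduced cells). Most of this was CD14 with 138 counts in each library, while PTPRC had 7 in each and CD3D, MS4A1 and CD68 had 0. The 6 melanocyte markers summed to 4.47 and 4.68 CPM (4.06 to 6.34), with TYR at 0. The 5 matched endothelial markers summed to 53.4 and 13.7 CPM (8.79 to 14.3), with KDR at 1 and 0 counts and TEK at 0 and 1. Almost all of it was CDH5 at 49.9 and 12.1 CPM. With a mean of 5.16 CPM per kilobase, CDH5 lay above the coding median of 4.21. The 5 smooth muscle and pericyte markers summed to 15.3 and 2.88 CPM (3.61 to 6.65), led by CNN1 with 333 counts and 0. In these last sums replicate 1 was above all other libraries, through CDH5 and CNN1.

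More genes were far apart between the untreated libraries than within either other pair, while the median gap lay between those of the other pairs. Of 13635 genes with at least 1 CPM in 1 or both, 11258 (82.6%) lay within 2-fold and 606 (4.44%) were more than 4-fold apart. The CRNN pair had 34 of 13563 genes more than 4-fold apart and the GFP pair 284 of 14068. The median gene differed 1.32-fold in the untreated pair, 1.12-fold in the CRNN pair and 1.38-fold in the GFP pair. Of the 606 untreated genes, 409 (3%) were higher in replicate 1 and 197 (1.44%) in replicate 2. The split moved to 349 and 243 with library totals alone, and to 352 and 321 with totals that leave out mitochondrial genes. The median of all genes, replicate 1 minus replicate 2, was 0.028 on the log2 scale with TMM factors, and -0.11 and -0.18 with those totals. Pearson's r of log2 CPM over the 12416 genes at 1 CPM in both was 0.940, against 0.991 in the CRNN pair and 0.954 in the GFP pair, each across genes of 2 libraries. Across genes the untreated difference followed neither GC content (Spearman's rho 0.031) nor transcript length (0.0037), whereas in the GFP pair rho was 0.555 and -0.304.

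Genes far apart were found at every level. Of the genes with a mean of 1 to 10 CPM 5.56% were more than 4-fold apart, of those at 10 to 100 CPM 2.50%, at 100 to 1000 CPM 4.27%, and of the 58 genes at 1000 CPM or more 10.3%. The transduced libraries lay nearer to replicate 2 for most of these genes. For 304 of the 409 genes higher in replicate 1, all 4 transduced libraries were nearer to replicate 2, and for 3 all 4 were nearer to replicate 1. Of the 197 genes higher in replicate 2, all 4 were nearer to replicate 2 for 158 and to replicate 1 for 0. Replicate 1 lay above all 5 other libraries for 400 of the 409, and below all for 193 of the 197. Replicate 2 itself lay below all other libraries for 134 of the 409, and above all for 39 of the 197. These genes were chosen for the gap between the 2 libraries, so the counts describe them and test nothing.

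**Figure D2:**
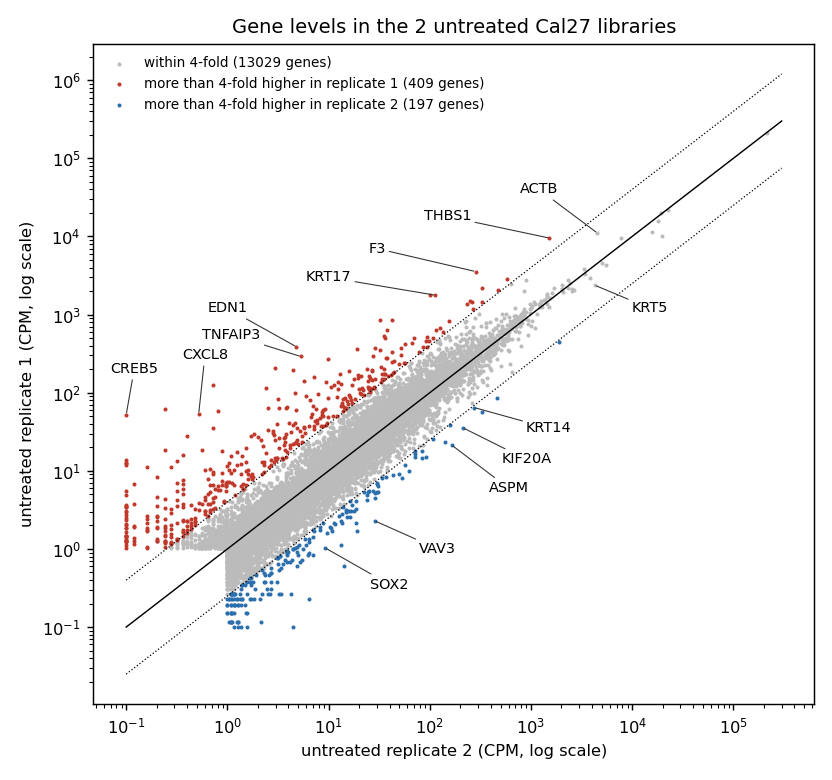
CPM of 13635 genes in untreated replicate 2 (x axis) and replicate 1 (y axis), both on log axes, with levels under 0.1 CPM drawn at 0.1; the solid line is equality and the dotted lines are 4-fold. Red points are the 409 genes more than 4-fold higher in replicate 1 and blue points the 197 more than 4-fold higher in replicate 2; KRT5 and ACTB lie between the dotted lines, while F3, KRT17 and THBS1 lie above them.

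NF-kB, a transcription factor of stress and inflammation, induces its own inhibitors along with cytokines and chemokines, and these genes differed widely between the untreated libraries. Of 25 NF-kB feedback genes, cytokines and chemokines at 1 CPM or more in 1 or both libraries, 16 were more than 4-fold higher in replicate 1. None was more than 4-fold higher in replicate 2, and the shares over all genes were 3% and 1.44%. The median log2 difference was 2.84, beside 0.028 over all genes. Replicate 1 was the highest of the 6 libraries for 22 of the 25, and replicate 2 was the lowest for 11, beside 31.1% and 7.67% of all genes. TNFAIP3 (A20), a ubiquitin editor that shuts NF-kB signalling off, had 291 CPM in replicate 1 and 5.32 CPM in replicate 2, a 54.6-fold difference (95% counting interval 46.0 to 65.3). In the transduced libraries it had 8.29 to 15 CPM, so replicate 1 was above and replicate 2 below all 4. CXCL8, the neutrophil chemokine interleukin-8, had 53.8 and 0.520 CPM (103-fold, 60.2 to 195), with 0.239 to 1.47 CPM in the transduced libraries. CCL20, the ligand of CCR6, had 144 counts and 1 count, a ratio of CPM of 137 with a counting interval of 24.3 to 5464. LIF, a cytokine of the interleukin-6 family, had 362 and 18.9 CPM, and RELB, an NF-kB subunit, 63.4 and 3.24 CPM. NFKBIA, the first inhibitor that NF-kB induces, had 113 and 58.0 CPM, and REL had 6.65 and 9.53 CPM.

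Promoters of 3 of these genes are printed because they show letters that NF-kB and its frequent partner AP-1 are known to bind, in genes with some of the widest gaps. Each run is the 250 bases before the RefSeq start on GRCh38.p14, plus strand, with matches in capitals. CXCL8 lies at chr4:73740319-73740568, TNFAIP3 at chr6:137867009-137867258 and CCL20 at chr2:227813592-227813841.
CXCL8: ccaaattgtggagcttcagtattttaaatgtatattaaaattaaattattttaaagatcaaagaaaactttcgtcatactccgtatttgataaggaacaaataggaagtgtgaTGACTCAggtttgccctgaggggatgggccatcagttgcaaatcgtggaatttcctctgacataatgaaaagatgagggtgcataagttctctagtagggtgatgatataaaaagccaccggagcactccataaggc
TNFAIP3: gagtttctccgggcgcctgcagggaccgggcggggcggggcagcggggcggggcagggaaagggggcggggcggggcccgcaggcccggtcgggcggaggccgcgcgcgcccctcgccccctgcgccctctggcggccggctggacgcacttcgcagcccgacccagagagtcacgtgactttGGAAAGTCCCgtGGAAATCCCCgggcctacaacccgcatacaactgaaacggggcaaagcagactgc
CCL20: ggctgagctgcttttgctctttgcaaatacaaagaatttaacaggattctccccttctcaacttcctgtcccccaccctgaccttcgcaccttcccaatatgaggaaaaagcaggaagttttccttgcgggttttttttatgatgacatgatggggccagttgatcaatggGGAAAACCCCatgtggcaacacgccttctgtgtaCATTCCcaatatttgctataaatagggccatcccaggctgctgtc
The letters searched on both strands were TGANTCA (AP-1), GGG, any 2 bases and TTTCC in a row (kappaB), GGAATG (TEAD) and TTTGAA (the cell cycle element CHR), with N for any base. CXCL8 held an AP-1 match that starts 137 bases before the start. Sites that differ from the searched letters were not counted, such as tggaatttcc in CXCL8, whose first base differs from the kappaB letters. TNFAIP3 held kappaB matches at 67 and 55 bases, and CCL20 a kappaB match at 79 and a TEAD match at 45 bases.

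Among promoters of that length each motif was in few members of any set, and a promoter could count for several motifs, whose letters may overlap. A kappaB match was in 3.85% of the 260 promoters found for the 347 coding genes higher in replicate 1, in 1.98% of 9552 promoters of coding genes at 1 CPM and in 1.73% of all 27305. None was in the 111 promoters found for the 140 coding genes higher in replicate 2. An AP-1 match was in 10.4% of the promoters of genes higher in replicate 1 and in 10.8% of those of genes higher in replicate 2, beside 3.87% of the expressed genes and 6.60% of all promoters. TEAD matches were in 10.4% and 10.8%, beside 9.5% of the expressed genes and 11.9% of all promoters. CHR matches were in 12.7% and 11.7%, beside 8.32% and 13.6%, so both were below the share over all promoters. A match is a description of letters, not of binding, and variants of these letters were not searched.

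Immediate early and MAPK feedback genes, which respond within minutes to growth signals, were also higher in replicate 1. Of 28 members 14 were more than 4-fold higher there and none in replicate 2, beside 3% and 1.44% of all genes. The median log2 difference was 1.77. The AP-1 subunit FOSL1 had 636 and 37.8 CPM, with 30.2 to 241 CPM in transduced cells, and JUN had 142 and 5.72 CPM, with 5.53 to 31.8 CPM. The ERK phosphatase DUSP5 had 347 and 32.1 CPM. FOS itself had 3.40 and 2.88 CPM, and EGR1 12.8 and 7.49 CPM, both within 2-fold. GFP replicate 1 held the upper end of the range for FOSL1 and JUN.

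**Figure D3:**
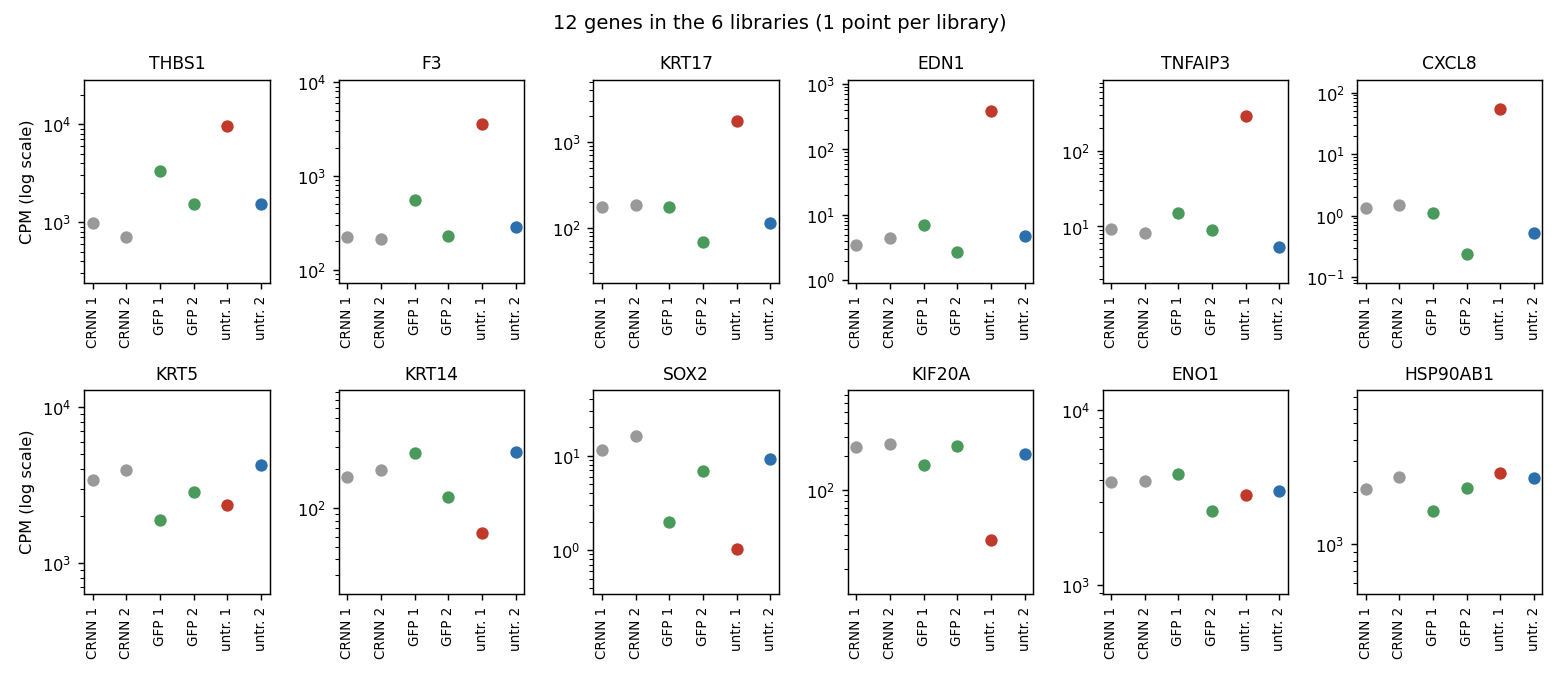
CPM of 12 genes in each of the 6 libraries on log axes, 1 point per library (grey CRNN, green GFP, red untreated replicate 1, blue untreated replicate 2). For THBS1, F3, KRT17, EDN1, TNFAIP3 and CXCL8 the red point lies above the other 5, for KRT14, SOX2 and KIF20A it lies below them, and ENO1 and HSP90AB1 stay within 2-fold between the untreated libraries.

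Secreted and contractile genes had wide gaps too. EDN1, the vasoconstrictor endothelin-1, had 387 and 4.80 CPM (80.6-fold, counting interval 67.4 to 97.4), with 2.71 to 7.11 CPM in transduced cells. PLAUR, the urokinase receptor, had 272 and 9.89 CPM. TAGLN, an actin-binding protein of contractile cells, had 125 and 0.721 CPM, with 1.04 to 20.2 CPM in transduced cells, and ANKRD1 57.6 and 0.801 CPM. CNN1 (calponin) had 333 counts in replicate 1 and 0 in replicate 2, at least 106-fold higher against a floor of 3 counts per library, with a 95% counting interval of the ratio that starts at 85.7. The transcription factor CREB5 had 1374 counts and 1 count, a ratio of CPM of 1311 with a counting interval of 235 to 51818. SERPINB2, an inhibitor of urokinase, had 62.3 and 0.240 CPM, and PTGS2, the inducible cyclooxygenase, 27.5 and 0.400 CPM. KRT17, a keratin of stressed epithelium, had 1771 and 113 CPM, with 67.6 to 182 CPM in transduced cells. The smooth muscle marker sum (15.3 and 2.88 CPM) and the endothelial one (53.4 and 13.7 CPM) were also higher in replicate 1. The first holds CNN1 itself, at 12.7 CPM in replicate 1, and almost all of the second was CDH5. The part of other cell types in the gaps was not tested. MYH11, DES and RGS5 had 30 and 58, 3 and 5, and 3 and 3 counts.

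Interferon-stimulated and antigen presentation genes were higher in replicate 1 by less. Of 31 interferon-stimulated genes 5 were more than 4-fold higher there, beside 3% of all genes, and the median log2 difference was 1.23. ISG15, a ubiquitin-like modifier, had 377 and 162 CPM, and MX1, a GTPase that blocks viruses, 188 and 26.7 CPM. BST2 (tetherin) had 147 and 146 CPM, and STAT2 124 and 139 CPM. Of 18 antigen presentation genes 4 were more than 4-fold higher in replicate 1, against the same 3%, with a median log2 difference of 1.07. B2M, the light chain of HLA class I, had 833 and 507 CPM. HLA-B (63.9 and 15 CPM) and the invariant chain CD74 (110 and 26.3 CPM) were 2 of the 4, and HLA genes can lose reads to their close copies.

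**Figure D4:**
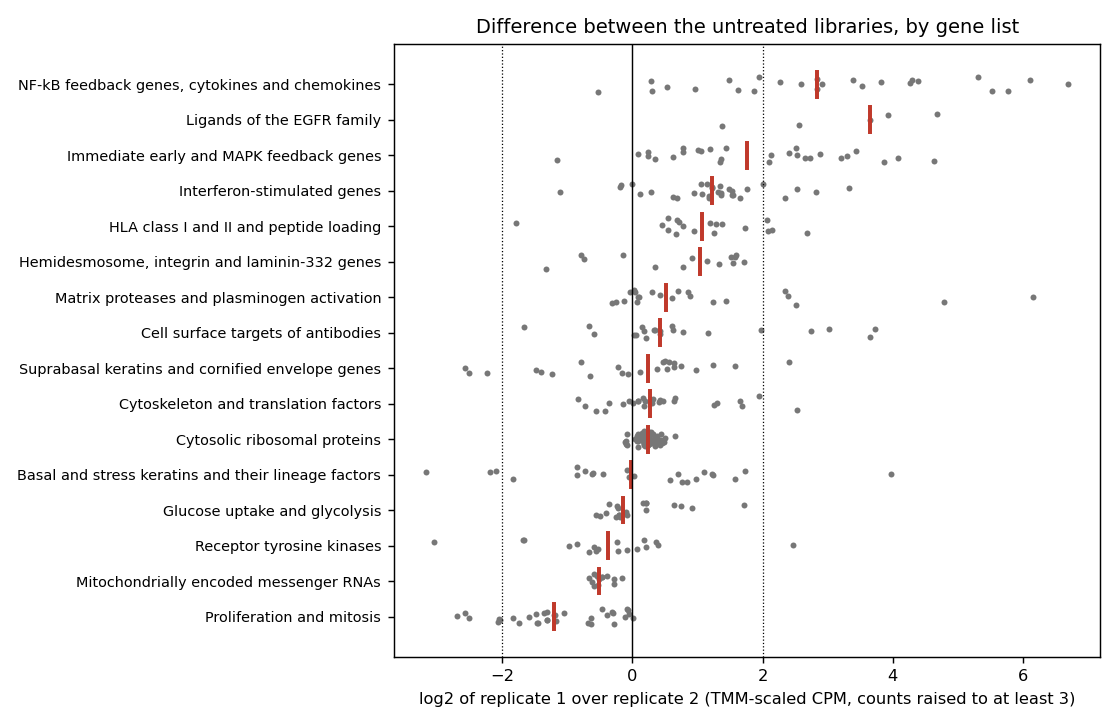
Log2 of replicate 1 over replicate 2 for each member, with at least 1 CPM in 1 or both libraries, of 16 gene lists (grey points; red bars are list medians; dotted lines are 4-fold). NF-kB genes and ligands of the EGFR family lie farthest to the right, with medians of 2.84 and 3.65. Ribosomal proteins cluster at 0.24, and the proliferation list lies to the left at -1.21.

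Cell division genes were lower in replicate 1. All 33 members had at least 1 CPM in both libraries, and the median log2 difference was -1.21. In replicate 2, 6 were more than 4-fold higher and in replicate 1 none, beside 1.44% and 3% of all genes. Replicate 1 was the lowest of the 6 libraries for 24 of the 33, beside 24.7% of all genes. KIF20A, a kinesin of cytokinesis, had 35.6 and 212 CPM, with 168 to 258 CPM in transduced cells. CENPF, a kinetochore protein, had 57.4 and 325 CPM, with 161 to 523 CPM, and CENPE had 8.17 and 52.6 CPM. MKI67, the Ki-67 antigen, had 87.6 and 241 CPM. Genes of DNA replication on the same list differed little: PCNA had 225 and 236 CPM, MCM7 567 and 565 CPM and RRM2 166 and 172 CPM.

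Other genes higher in replicate 2 were fewer and had smaller folds. SLITRK6, a membrane protein, had 0.229 and 6.41 CPM (27.9-fold, counting interval 12.6 to 77.3), and VAV3, an activator of small GTPases, had 2.29 and 28.5 CPM (12.4-fold, 9.53 to 16.4). The sphingosine-1-phosphate receptor S1PR5 had 1.11 and 13.3 CPM. OVOL2, a repressor that keeps cells epithelial, had 0.840 and 6.29 CPM, with 5.03 to 6.28 CPM in transduced cells. SOX2 differed 8.97-fold (6.0 to 13.9), but GFP replicate 1 had 1.97 CPM and the other transduced libraries 6.86 to 16.4 CPM. KRT15, a keratin of resting basal cells, had 184 and 655 CPM, which is less than 4-fold apart.

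Set against the 4 transduced libraries as a group, the untreated pair had 1 gene that passed. With edgeR's quasi-likelihood test on all 6 libraries and Benjamini-Hochberg adjustment over 16396 genes, 1 gene (0.0061%) was called, which was CRNN. It had 3.51 and 2.08 CPM in untreated cells, 3.06 and 2.55 CPM with GFP and 964 and 1028 CPM with the CRNN vector, so the difference of -4.24 on the log2 scale came with the 2 libraries that carry the CRNN vector (SE 0.346, edgeR adjusted p = 0.0125, n = 2 against 4). It no longer passed without GFP replicate 1 (edgeR adjusted p = 0.465) or without GFP replicate 2 (edgeR adjusted p = 0.281). An unadjusted p under 0.05 was reached by 1034 genes (6.31%), of which 643 were higher in untreated cells and 391 lower. The p-values measure only the spread between these libraries, which may be technical.

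The call count turned on replicate 2. Without it, replicate 1 alone against the 4 transduced libraries gave 1227 of 17739 genes (6.92%), 794 higher and 433 lower, with the lone library assumed to vary like the other groups, and without replicate 1 there was 1. For the NF-kB list the median log2 difference from the transduced libraries was 1.59 over 26 tested members with none called. It was -0.40 with replicate 2 alone, again with none called, and 2.41 with replicate 1 alone, where 18 of the 26 were called higher, beside 4.48% of 17739 genes. For the proliferation list the median was -0.47 with both libraries, -0.025 with replicate 2 alone and -1.30 with replicate 1 alone, where 15 of 33 were called lower, beside 2.44% of all genes tested. DESeq2 called 13 genes on the same contrast, 9 higher and 4 lower.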

How the data were processed

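Counts per gene were deposited by the authors as 1 table of raw whole numbers for 57820 Ensembl gene identifiers in 6 libraries. Per the submitters' processing notes, the tools were STAR 2.6, HTSeq 0.6.1, FastQC 0.11.7, edgeR and bcl2fastq, and hg19, GRCh37 and GRCh38 are listed as builds with no role for each. Which annotation was counted, and with which strand setting, is not given in the sources used here. Reads of overlapping or antisense genes may therefore be mixed.

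Names and exon lengths came from GENCODE 44 by identifier without version, which matched 51996 genes and left 5824. CPM used TMM factors. Genes were compared between the untreated libraries where 1 or both had at least 1 CPM, with each count raised to at least 3 before a fold. Intervals of single ratios are 95% and exact.

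The 1 test was edgeR 4.0.16 (R 4.3.3, quasi-likelihood, filterByExpr, no block) on all 6 libraries, untreated minus the mean of the CRNN and GFP groups, two-sided, with Benjamini-Hochberg adjustment over 16396 genes. Alternatives were other scaling, filters, thresholds, folds and lengths, DESeq2 1.42.0, a replicate block and each library left out. Canonical transcript length was added after seeing the data. Tested on simulated data for this contrast (200 of 16396 genes changed), the fit recovered 95.8% of 4-fold and 100% of 8-fold changes. A mean of 6.67 and 6.33 false calls came over 3 runs each. Every simulated gene had the same spread, and changes were placed only in genes at a mean log2 CPM of 1 or more. Both untreated libraries were given equal levels, unlike the data, so these rates do not show the power of the test here.

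The libraries, gene lists and tests were chosen with earlier results of these data known. Named genes were the most abundant ones, list members by a set order and those more than 4-fold apart, the 15 coding genes with the largest fold each way at 5 CPM or more, and CRNN. Promoters came from RefSeq on GRCh38.p14. Some genes are not reported here.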

Additional observations from a re-analysis of the deposited data

How the results depend on the processing

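The number of genes called for untreated against transduced cells was 1 with RLE factors, library totals, a filter of 1 CPM in 2 libraries, a threshold of 0.1 and a replicate block. It was 284 with no filter, 13 with DESeq2 and 0 at an adjusted p under 0.01 (edgeR, 1034 genes at an unadjusted p under 0.05), and 0 to 1227 with single libraries left out. It was 0 without GFP replicate 1 or GFP replicate 2 (900 and 1478 genes at an unadjusted p under 0.05). The replicate numbers do not pair the libraries by label: across 11729 genes, deviations of same-numbered libraries had r = -0.0707 for the untreated and CRNN groups, 0.193 for untreated and GFP, and 0.255 for the 2 transduced groups.

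The number of genes more than 4-fold apart between the untreated libraries, 606, was 366 among genes at 5 CPM or more. Among genes with at least 10 counts in 1 or both it was 903, with 527 higher in replicate 1 and 376 in replicate 2. At 2-fold the number was 2377 and at 8-fold 200. It was 592 to 673 with other scaling. The counts of detected genes and of coding genes with no count stayed within 1.5 times under each alternative, with 12914 and 13137 genes at 1 CPM in replicate 1 or 2 alone. List medians per kilobase moved with the length used: for ribosomal proteins from 219 CPM per kilobase of merged exons to 367 by the longest transcript and 782 by the canonical one, and for noncoding RNAs from 5.16 to 8.06 and 31.7. The sign of the median log2 difference between the replicates changed with scaling for 4 lists: basal (-0.013, 0.0016 with RLE factors), desmosome (0.15, -0.051 without mitochondrial genes in the totals), noncoding RNA (0.098, -0.041 with totals and -0.10 without mitochondrial genes) and melanocyte markers (0.071, -0.068 and -0.13). A count of 0 allowed up to 3 counts, so genes under 0.115 to 0.120 CPM cannot be ranked.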
